A study of Saccharomyces cerevisiae with 95 samples.

Results

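The data describe the genes that the study grouped under the heading Cell-cycle G1 genes, measured on 95 2-color arrays of budding yeast. The heading lists 280 ORFs. The 219 ORFs that stand under no other heading of the 20 modules in that table are the members described here, and all 219 are among the 6132 ORFs of the deposited values. The other 61 ORFs also belong to another module, most often to the module of histones and other proteins (43 ORFs), and 60 of them have values, which serve for comparison. Of the members, 155 were placed in 8 role groups, namely regulators (8), DNA replication (27), DNA repair and checkpoint (18), cohesion and condensation (6), spindle pole, kinetochore and microtubules (32), chromatin (13), septins, budding and polarity (15), and glycosylation, secretion and wall (36). The remaining 64 were left without a role group.

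Each value is the log2 of Cy5 over Cy3 signal after normalization, so that 1 stands for a doubling. The strains were haploid. Mutant *adh1* cells (BY4741 ADH1::KANMX), which lack the main alcohol dehydrogenase of fermentation, were grown to log phase in YP-glycerol and set against the same strain in YPD, which holds glucose (3 arrays). Wild-type (WT) BY4741 cells were grown and compared in the same way (2 arrays). In a separate experiment cells labelled *adh1* were moved from an overnight YPD culture to 2% glycerol for 0.5, 1, 2 and 4 h, or to fresh YPD for 0.5, 2 and 4 h, and set against the overnight culture (7 arrays, 1 per time). The other 83 arrays follow 10 chemostat courses against batch cultures in late log phase. A chemostat holds cells at steady state by the supply of 1 limiting nutrient, here glucose (0.02%) or histidine (2 mg/l), and 71 of these arrays were taken after the onset of a change.

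Glucose-limited cells (BY4741) received DTT (6 mM), which reduces disulfide bonds, NaCl (0.4 M), H2O2 (0.6 mM), a heat shock (39 °C for 5 h) or glucose (to 0.04%). Histidine-limited cells received DTT (6 mM), NaCl (0.31 M), a heat shock (37 °C for 5 h), clotrimazole (10 µM), which blocks ergosterol synthesis, or histidine (to 4 mg/l). For the histidine-limited cells the sample labels give BY4741 and the study's methods a W303-1 strain that lacks *BAR1*, so the strain is not settled here. The study describes the additions as pulses that the flow of medium washed out over about 5 h. Doses are therefore those at the onset, times are hours after the onset, and late arrays do not stand for cells at the full dose. Values of these courses are given as the change from the course's own steady state. Each glucose-limited course has 1 steady-state array, and the histidine-limited DTT course has none and was set against the mean of the other histidine-limited steady states. The labels do not say whether replicate arrays come from separate cultures, so p-values measure only the spread between these arrays, which may be technical.

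In G1, budding yeast cells grow until the cyclin Cln3 with the kinase Cdc28 relieves repression of the transcription factors SBF (Swi4 with Swi6) and MBF (Mbp1 with Swi6). These switch on a wave of genes that serve budding, cell wall growth, DNA synthesis and duplication of the spindle pole, among them the cyclins *CLN1*, *CLN2*, *CLB5* and *CLB6*. The cultures were not synchronised. In such bulk samples fewer cells in a phase and less RNA per cell cannot be told apart.

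The study describes the module as defined earlier, by an iterative signature algorithm on a large expression dataset. Whether any of these arrays were part of it is not stated, so a common direction of the members is not independent evidence. Over the 71 chemostat arrays after onset, pairs of members had a median Pearson correlation of 0.066, with 3.607% of the pairs over 0.5, against a median of -0.0016 and 3.262% over all pairs of ORFs. These arrays share courses and references, and the values are a description. Only 31 of the 219 members correlated over 0.5 with the mean of the other members, and 36 correlated below 0. The 60 G1 ORFs that other modules share had a median pairwise correlation of 0.3673, with 29.27% of pairs over 0.5. The members therefore did not move as 1 block on these arrays, and they are described by their roles and one by one.

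The labels of the arrays were checked first. The *ADH1* ORF, deleted in the mutant, should give no transcript in either channel, but it read 5.60, 5.43 and 5.32 on the 3 log-phase arrays labelled *adh1*, against 0.11 and 0.85 on the WT arrays. *ADH2*, a close paralog whose transcript the *ADH1* probe may also bind, read 5.86, 5.65 and 5.27, against 0.02 and 0.55, so the 2 ORFs cannot be told apart here. The alpha-cell genes *MF(ALPHA)2*, *SAG1* and *STE3* lay between -5.44 and -3.45 on the arrays labelled *adh1*, against -0.32 to 0.34 on the WT arrays, and *MF(ALPHA)1* lay between -4.56 and -3.92 on the arrays labelled *adh1*. BY4741 is an a strain, in which these genes are silent, so their levels in the glucose channel go against the label. The 5 a-cell genes *MFA1*, *MFA2*, *STE2*, *BAR1* and *STE6* were lower in glycerol in both groups (means between -2.25 and -0.27 in the arrays labelled *adh1* and between -2.57 and -0.79 in WT). The group is therefore named as labelled, every direction drawn from it rests on that label, and the part of these genes in the members' values was not tested.

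In log phase, both strains had members higher and lower in glycerol than in glucose, and the shares were near those of all ORFs in cells labelled *adh1*. Of the 219 members, 172 had a value on all 5 log-phase arrays and were tested, and 47 were not, among them the regulators *STB1*, *HCM1* and *PLM2*. In cells labelled *adh1* 43 members (25%) were higher in glycerol, against 29.1% of the 4827 ORFs tested, and 55 (31.98%) were lower, against 34% (limma, adjusted p under 0.05). In WT cells 30 members (17.44%) were higher, against 27.7% of all ORFs, and 80 (46.51%) were lower, against 33%. The median over the tested members was -0.09, -0.02 and 0.02 on the 3 arrays labelled *adh1*, against -0.32 and -0.19 on the 2 WT arrays. The median over all ORFs lay between -0.05 and -0.01 on the same arrays. Without WT replicate 2, 19 members were higher in WT.

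**Figure D1:**
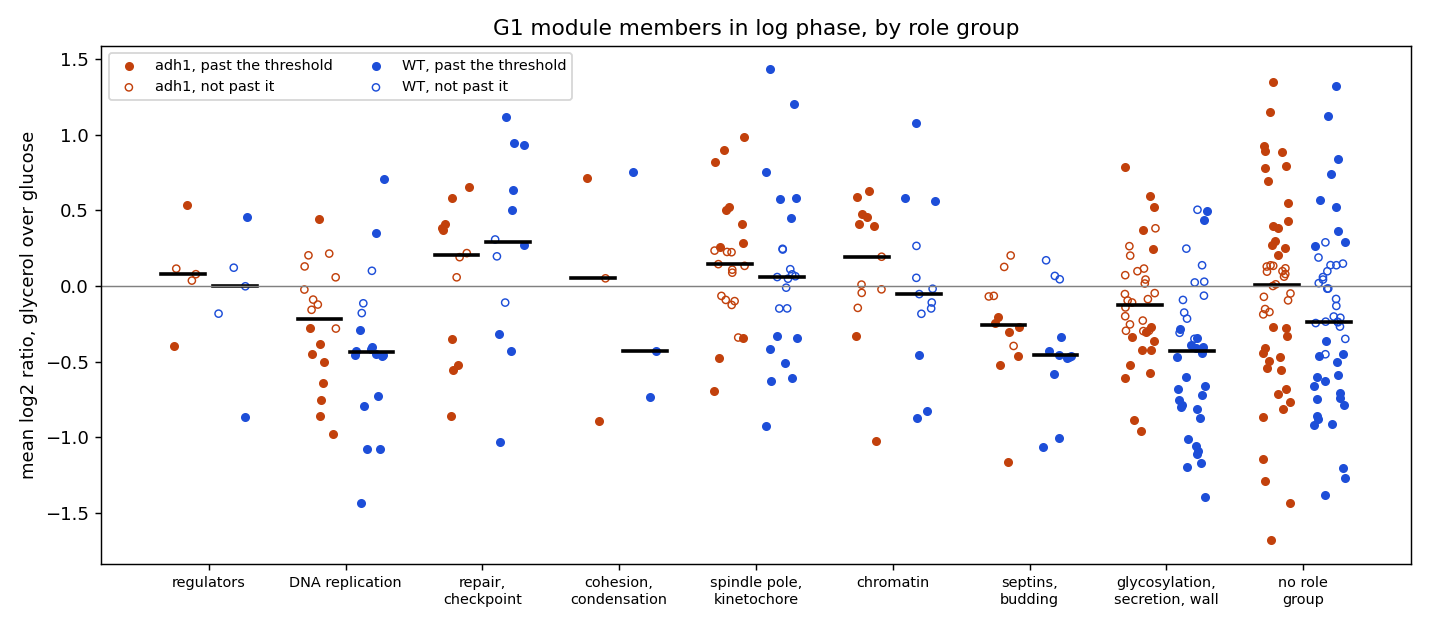
Each point is 1 of the 172 tested members, with its mean log2 ratio of glycerol over glucose on the vertical axis, by role group on the horizontal axis, for cells labelled *adh1* (orange, mean of 3 arrays) and WT (blue, mean of 2 arrays). Filled points passed the limma threshold of 0.05 after adjustment, and black lines are group medians. The glycosylation, secretion and wall group has a median of -0.12 in *adh1*, against -0.43 in WT, while the median of the DNA repair and checkpoint group is above 0 in both strains.

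Among the regulators, *NDD1*, the activator of the later G2-M genes, was lower in glycerol in both strains, with -0.32, -0.49 and -0.38 on the arrays labelled *adh1*, against -1.01 and -0.72 on the WT arrays (means -0.40 and -0.87, adjusted p = 0.00655 and 0.000526). The mitotic cyclin gene *CLB3* was higher in both, with 0.36, 0.69 and 0.57 in cells labelled *adh1* and 0.23 and 0.69 in WT cells (adjusted p = 0.00502 and 0.0239). No other regulator passed the test in either strain. *SWI4*, the DNA-binding subunit of SBF, averaged 0.12 in both strains, the S-phase cyclin gene *CLB5* averaged 0.08 in *adh1* and -0.18 in WT cells, and its relative *CLB6* lay between -0.22 and 0.22 on all 5 arrays. Without adh1 replicate 2 the *NDD1* call in *adh1* was lost (adjusted p = 0.0562), and without WT replicate 2 so was that of *CLB3* in WT (0.244).

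Of the 18 replication genes tested, 8 were lower in glycerol and 1 was higher in cells labelled *adh1* (34% of all ORFs were lower), and 13 were lower and 2 higher in WT cells (33% of all ORFs were lower). The median of the group was -0.21, -0.21 and -0.19 on the arrays labelled *adh1*, against -0.53 and -0.30 on the WT arrays. *POL12*, which encodes the B subunit of DNA polymerase alpha-primase, had -0.64, -0.70 and -0.93 in cells labelled *adh1*, against -1.38 and -1.49 in WT cells, and the strains did not overlap. *TOF1*, a subunit of the fork protection complex, was the lowest of the group in cells labelled *adh1*, with values between -1.06 and -0.89, and had -0.95 and -1.20 in WT cells. The highest was *SLD2*, needed to start replication, in cells labelled *adh1* (mean 0.44, adjusted p = 0.00379), and *RNH201*, the catalytic subunit of RNase H2, in WT cells (mean 0.71, adjusted p = 0.00212). The 3 genes of replication factor A, the single-strand binding complex, are members as well. In cells labelled *adh1* only *RFA2* passed the test (mean -0.28), and *RFA3* averaged 0.20 (adjusted p = 0.0518). In WT cells *RFA1* (-0.45), *RFA2* (-0.46) and *RFA3* (-0.29) were all lower.

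The repair and checkpoint group was split in both strains, with 5 of 12 members higher and 4 lower in cells labelled *adh1*, and 6 higher and 3 lower in WT cells. All ORFs were split too, with 29.1% higher and 34% lower in cells labelled *adh1*, and 27.7% and 33% in WT cells. *NSE4*, a subunit of the Smc5-Smc6 complex, had 0.65, 0.61 and 0.70 in cells labelled *adh1*, and 0.46 and 0.81 in WT cells. *RAD53*, the effector kinase of the DNA damage checkpoint, was the highest of the group in WT cells, with 0.97 and 1.26, and was at 0.18, 0.39 and 0.57 in cells labelled *adh1*. *RDH54*, a recombination translocase, was the lowest in WT cells (mean -1.03), and *RTT107*, a scaffold of repair at stalled forks, the lowest in cells labelled *adh1* (mean -0.86). The cohesin genes went apart. *SMC3* was higher on all 5 arrays, with 0.75, 0.71 and 0.67 in cells labelled *adh1* and 0.83 and 0.68 in WT cells, and its partner *SMC1* was lower on all 5, with -0.94, -0.69 and -1.04 in cells labelled *adh1* and -0.95 and -0.52 in WT cells.

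The spindle group was split as well. *CSE4*, the histone H3 variant of the centromere, had 0.82, 1.13 and 1.02 in cells labelled *adh1*, and 1.24 and 1.17 in WT cells. *SPC42*, the core of the spindle pole body, had 0.64, 1.06 and 0.98 in cells labelled *adh1*, and 1.21 and 1.65 in WT cells. Of the 23 tested members of this group, 8 were higher and 3 lower in cells labelled *adh1*, and 6 were higher and 7 lower in WT cells. Among all ORFs 29.1% were higher and 34% lower in cells labelled *adh1*, and 27.7% and 33% in WT cells. The WT counts of the group were near these shares. The lowest was *SPC98*, of the gamma-tubulin complex, in cells labelled *adh1* (mean -0.70), and *TUB1*, alpha-tubulin, in WT cells (mean -0.92). Among the 13 chromatin genes, 6 were higher and 2 lower in cells labelled *adh1*, and 3 were higher and 3 lower in WT cells. Both WT shares were below those of all ORFs. *RTT109*, the histone H3 acetyltransferase, was higher in both strains (means 0.63 and 1.07), and the histone chaperone *ASF1*, its partner, was lower in both (means -1.03 and -0.87).

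Of the 15 septin, budding and polarity genes 12 were tested, and 7 were lower and 0 higher in cells labelled *adh1*, and 9 lower and 0 higher in WT cells, against 34% and 33% of all ORFs lower. At an unadjusted p under 0.05, limma gave 8 and 9 lower and 0 higher, against 36.2% and 35.6% of all ORFs lower. *MYO2*, the myosin that carries vesicles to the bud, had -1.16, -1.36 and -0.96 in cells labelled *adh1*, and -0.82 and -1.18 in WT cells. Of the septin genes, *CDC11* was between -0.28 and -0.21 on the arrays labelled *adh1* and had -0.53 and -0.43 on the WT arrays. *CDC3* averaged -0.40 in cells labelled *adh1* (adjusted p = 0.0667) and had -1.50 and -0.62 in WT cells (mean -1.06, adjusted p = 0.00331). Of the 36 genes of glycosylation, secretion and wall, 11 were lower and 5 higher in cells labelled *adh1*, a share lower near the 34% of all ORFs, and 23 were lower and 2 higher in WT cells, against 33% of all ORFs lower. *FKS1*, the catalytic subunit of glucan synthase, was lower in both strains (-0.96, -0.94 and -0.98 in cells labelled *adh1*, -1.18 and -1.15 in WT cells), and *OCH1*, which starts the outer mannan chain, was higher in both (means 0.79 and 0.44). *OST1*, a subunit of oligosaccharyltransferase, which adds glycans to new proteins, had -0.85, -0.89 and -0.90 in cells labelled *adh1*, and -1.42 and -1.37 in WT cells.

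Members without a role group held the highest and the lowest mean in cells labelled *adh1*. *PMT7*, named for its likeness to protein mannosyltransferases, had -1.73, -1.70 and -1.61 in cells labelled *adh1*, against -0.87 and -0.85 in WT cells, and was the lowest of all tested members in cells labelled *adh1* (adjusted p = 7.1e-06). *SKG6*, a membrane protein of growth sites, had -1.41, -1.35 and -1.54 in cells labelled *adh1*, and *MKC7*, an aspartyl protease of the cell surface, had -1.12, -1.53 and -1.21 in cells labelled *adh1* and -1.60 and -1.17 in WT cells. The highest in cells labelled *adh1* was *SMF2*, a manganese transporter, with 1.28, 1.39 and 1.38, against 0.04 and 0.25 in WT cells. *AIM34*, linked to mitochondria, was higher in both, with 0.76, 1.15 and 0.86 in cells labelled *adh1*, and 1.36 and 1.28 in WT cells. Of the 43 members higher in cells labelled *adh1*, 24 were also higher in WT cells (55.81% of the first list and 80% of the second), and of the 55 lower, 48 were also lower in WT cells (87.27% and 60%). *ERV25*, *HTZ1* and *LAG1* were higher in *adh1* and lower in WT cells. Both lists come from a fit that shares its estimate of the spread, and the same sharing over all ORFs was not counted. Among all ORFs 63.1% were called in cells labelled *adh1* and 60.7% in WT cells. Over all ORFs the arrays labelled *adh1* correlated with the WT arrays at 0.635 to 0.739. The sharing is thus not shown to be particular to the members.

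The difference between the strains was tested in the same fit. It was positive, that is the ratio of glycerol over glucose was higher in cells labelled *adh1* than in WT cells, for 35 of the 172 members (20.35%), against 13.8% of all ORFs, and negative for 6 (3.488%), against 11.8%. Of the 36 glycosylation, secretion and wall genes, 15 were higher in *adh1* and 0 lower, with a median difference of 0.41. At an unadjusted p under 0.05, limma gave 19 higher and 0 lower there, against 21.2% and 19% of all ORFs. *MNN2*, an alpha-1,2-mannosyltransferase, had 0.46, 0.08 and 0.25 in cells labelled *adh1*, against -1.45 and -0.95 in WT cells (difference 1.46, SE 0.19, adjusted p = 0.00322). *STT3*, the catalytic subunit of oligosaccharyltransferase, had -0.21, -0.18 and -0.29 in cells labelled *adh1*, against -1.17 and -0.84 in WT cells (difference 0.78, adjusted p = 0.01). *ELO1*, a fatty acid elongase, averaged -0.27 in *adh1* and -1.06 in WT cells (difference 0.79, adjusted p = 0.00579). In each of these genes the arrays of the strains did not overlap, as in all 35 positive and all 6 negative calls of members. This was also a condition for naming the largest called differences, and its share over all ORFs was not counted.

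Outside that group, *ALE1*, a lysophospholipid acyltransferase, had 0.13, 0.10 and 0.18 in cells labelled *adh1*, against -1.003 and -1.533 in WT cells (difference 1.40, adjusted p = 0.00275). *HTZ1*, the histone variant H2A.Z, had 0.69, 0.35 and 0.38 in cells labelled *adh1*, against -0.75 and -0.90 in WT cells, so that the strains lay on either side of 0 (difference 1.30, SE 0.15, adjusted p = 0.00203). *JEM1*, a chaperone partner of the endoplasmic reticulum, had 0.74, 0.82 and 0.82 in cells labelled *adh1*, against -0.85 and -0.05 in WT cells (difference 1.24, adjusted p = 0.0105). *TUB1* was near 0 in cells labelled *adh1* (-0.10, -0.12 and -0.06) and low in WT cells (-0.97 and -0.88). The negative differences were *PMT7* (-0.82), *RTT107* (-0.75), *RAD53* (-0.73), *SKG6* (-0.69), *URH1*, a uridine nucleosidase (-0.64), and *RNH201* (-0.58). The *SKG6* call was lost without any of 4 of the 5 arrays in turn, and the number of members with a positive difference was 13, 14 and 22 without adh1 replicate 1, 2 and 3. In these 3 fits 13%, 12.9% and 16.8% of all ORFs passed in either direction, against 25.6% with all arrays. For the members it was 8.72%, 10.4% and 13.9%, against 23.8%.

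The other genes of the G1 pathway, a list of 35 of which 31 were tested, are described beside the members. In cells labelled *adh1* 12 were higher in glycerol and 6 lower (29.1% and 34% of all ORFs), and in WT cells 6 were higher and 15 lower (27.7% and 33%). In the difference 11 were higher in *adh1* and 2 lower (13.8% and 11.8%). *CLN1* had 1.29, 1.02 and 1.15 in cells labelled *adh1* (adjusted p = 0.000282), against -0.25 and 0.36 in WT cells, with no overlap (difference 1.10, adjusted p = 0.0101). *FAR1*, the inhibitor through which mating pheromone arrests cells in G1, had -2.39, -2.43 and -2.25 in cells labelled *adh1*, against a mean of -0.39 in WT cells (difference -1.97). The 7 tested core histone genes had medians of 0.37, 0.54 and 0.56 on the arrays labelled *adh1*, against -1.52 and -0.57 on the WT arrays, and 5 of 7 were lower in WT. The 51 tested G1 ORFs shared with another module had medians of 0.16, 0.23 and 0.20 on the arrays labelled *adh1*, against -1.06 and -0.52 on the WT arrays. Of them 31 had a positive strain difference and 1 a negative one.

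After the transfer of cells labelled *adh1*, the median of the members was below 0 on the first glycerol array and above 0 on the last. Against the overnight culture it was -0.22, -0.06, 0.04 and 0.09 after 0.5, 1, 2 and 4 h in glycerol, and -0.03, 0.01 and 0.08 after 0.5, 2 and 4 h in fresh glucose. Counts are of members at 1 or more from 0 on the log2 scale, with 1 array per time and no test. At 0.5 h in glycerol 9 members were up and 23 down (11.8% up and 9.76% down of all ORFs), and at 4 h 15 were up and 2 down (6.58% up and 4.18% down of all ORFs). In glucose 5 members were up and 7 down at 0.5 h (9.7% up and 6.23% down of all ORFs), and 7 were up and 1 down at 4 h (6.71% up and 3.56% down). Both courses were set against the overnight culture, and they share the times 0.5, 2 and 4 h. Beside these values, *ADH1* read 0.54, 3.46, 4.82 and 3.53 over the 4 times in glycerol, against 0.12, 0.63 and 0.19 over the 3 times in glucose. *MF(ALPHA)2* read -0.18, -1.21, -2.40 and -3.49 in glycerol, against 0.71, 0.95 and 0.84 in glucose, and *STE3* read -0.87, -1.13, -2.001 and -3.108, against -0.19, -0.14 and 0.12. *SAG1* was above 0 early in glycerol (0.84, 0.63, -0.24 and -2.25, against 0.73, 1.14 and 0.98 in glucose). *MF(ALPHA)1* did not fall steadily (-0.86, -2.115, -0.44 and -3.485, against 0.735, 0.78 and 0.77). Their part was not tested.

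*SPC42* and *CSE4*, both high in log phase, were above 0 on every array of the transfer that gave a value. *SPC42* had 1.56, 2.21, 1.10 and 2.48 over the 4 times in glycerol, against 1.09, 0.61 and 0.86 over the 3 times in glucose. *CSE4* had 0.75, 1.57, 1.62 and 1.09 in glycerol, and 0.49 and 0.31 at 2 and 4 h in glucose. *TUB1* was lowest at the first time in glycerol (-1.75, -1.52, -0.94 and -0.38) and near 0 in glucose (0.35, 0.14 and 0.09). *SNL1*, a membrane protein of the nuclear envelope and endoplasmic reticulum, went to opposite sides, with -2.10, -3.37, -3.18 and -1.94 in glycerol, against 0.25, 1.78 and 1.82 in glucose. *UNG1*, a uracil-DNA glycosylase, did so too, with -0.70, -1.42, -1.97 and -1.47 in glycerol, against 0.71, 0.82 and 0.44 in glucose.

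Replication genes differed in their time course. *POL12* had -0.63, 0.10, 1.01 and 0.35 in glycerol, against 1.72, 1.82 and 1.86 in glucose, where it was up from the first array. *RFA3* had 0.32, 0.72, 0.97 and 1.05 in glycerol, and *RFA2* had 0.36, 0.62, 0.83 and 0.83. Both replication factor genes were above 0 on all 4 glycerol arrays. Outside the members *CLN1* had -0.44, -0.49, 0.54 and 1.06 in glycerol, and *RNR1*, the large subunit of ribonucleotide reductase, had -0.98, -0.40, 0.91 and 0.94, both low on the first arrays and high on the last. *SWI4* was highest early in glycerol (1.05, 0.87, 0.50 and 0.18) and stayed up in glucose (0.92, 0.75 and 0.91).

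Chemostat steady states were compared with batch cultures in late log phase, which serve as a common type of reference and whose own spread is not measured. In glucose limitation 55 members (25.11%) were higher in the chemostat, against 11.3% of all ORFs, and 6 (2.74%) were lower, against 12.9%. In histidine limitation 23 members (10.5%) were higher, against 18.1% of all ORFs, and 39 (17.81%) were lower, against 17.3%. The median over the members lay between 0.07 and 0.20 in the 5 glucose-limited steady states and between -0.13 and -0.02 in the 4 histidine-limited ones. Without the glucose-limited DTT course the number higher in glucose limitation was 29, and without NaCl, clotrimazole or histidine addition those higher in histidine limitation were 12, 12 and 11. In these fits 13% of all ORFs passed in either direction in glucose limitation, and 27.5%, 23.5% and 19% in histidine limitation. With all courses the shares were 24.2% and 35.5%.

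**Figure D2:**
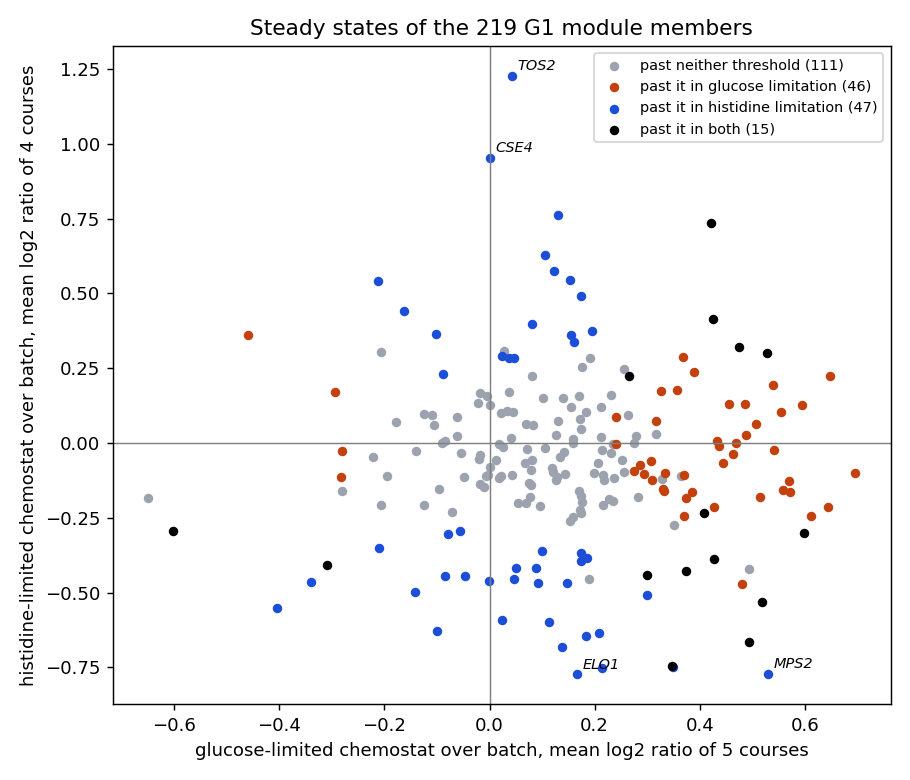
Each point is 1 of the 219 members, with the mean log2 ratio of chemostat over batch in 5 glucose-limited courses on the horizontal axis and in 4 histidine-limited courses on the vertical axis. Colors show in which limitation the member passed the limma threshold of 0.05 after adjustment (46 in glucose only, 47 in histidine only, 15 in both, 111 in neither). Most of the called points lie right of 0 in glucose limitation, while *TOS2* (1.23) and *CSE4* (0.95) stand apart at the top.

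In glucose limitation the members that were higher came from most role groups, with 7 of 27 replication genes, 5 of 18 repair genes, 7 of 32 spindle genes, 5 of 15 budding genes and 9 of 36 glycosylation and wall genes. Among all ORFs 11.3% were higher. The largest increase was *RFA3*, with 0.90, 0.41, 0.61, 1.03 and 0.53 in the DTT, heat shock, NaCl, H2O2 and glucose addition courses (mean 0.70, adjusted p = 0.00272). *RFA2* (0.37) and *RFA1* (0.30, adjusted p = 0.0488) were higher too, so all 3 subunits passed. Of the regulators *STB1*, a partner of Swi6, averaged 0.37 (adjusted p = 0.0179) and *CLB6* 0.31 (adjusted p = 0.0165). *ALG14*, an early enzyme of the N-glycan precursor, averaged 0.60. *SMC3* went the other way, with -0.56, -0.73, -0.58, -0.39 and -0.75 (mean -0.60, adjusted p = 0.00152), while *SMC1* averaged 0.09 and did not pass.

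In histidine limitation 4 of the 15 septin, budding and polarity genes were higher and 0 were lower, and limma gave the same counts at an unadjusted p under 0.05 (23.7% of all ORFs higher and 23% lower). *TOS2*, a bud neck protein, had 0.71, 1.34, 1.47 and 1.40 in the heat shock, NaCl, clotrimazole and histidine addition courses (mean 1.23, adjusted p = 0.000982). *GIC1*, an effector of the polarity GTPase Cdc42, had 0.30, 0.92, 0.83 and 0.90 (mean 0.74), and the septin gene *CDC3* averaged 0.63. *CSE4* had 0.79, 1.18, 0.87 and 0.98 (mean 0.95, adjusted p = 0.000599). Lower were the cohesin genes *IRR1* (-0.51), *SMC1* (-0.42) and *SMC3* (-0.29), 8 of the 36 glycosylation and wall genes, among them *ELO1* (-0.77) and *MNN1*, an alpha-1,3-mannosyltransferase (-0.75), and the spindle genes *MPS2*, which anchors the spindle pole in the envelope (-0.77), and *MIF2*, a kinetochore protein that binds the centromere (-0.75). Of the 32 spindle genes 6 were lower and 5 higher, and the share lower was near the 17.3% of all ORFs (18.1% were higher). *SPT16*, a histone chaperone of the FACT complex, averaged -0.75. Of the regulators, *CLB3* alone passed (0.29, adjusted p = 0.0364). Beside these values, the a-cell genes *MFA1* and *MFA2* lay between -3.40 and -1.38 in the 4 histidine-limited steady states, against -0.90 to 0.97 in the 5 glucose-limited ones. *STE2* lay between -1.385 and -0.71, against -0.26 to 1.00. The ranges of *STE6* (-1.25 to -0.07, against -0.22 to 0.22) and *BAR1* (-0.16 to 0.39, against -0.58 to 0.75) overlapped. The alpha-cell gene *STE3* lay between 0.85 and 1.76, against -0.04 to 0.27. The other alpha-cell genes lay between -0.16 and 0.54, against -0.41 to 0.40. The part of these genes was not tested.

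Some members were called in both limitations, and the same counts over all ORFs were not made. *ALG5*, *GIC1*, *MKC7*, *SNL1* and *YHR127W* were higher in both, and *SMC3* and *YHR173C* were lower in both. Another 8 were higher in glucose and lower in histidine limitation, among them *ALG14*, *CDC21*, *MIF2*, *RFA1* and *SPC110*. The difference between the limitations at steady state was not tested, and limitation, medium and perhaps strain change together. Among the other cell-cycle lists, ORFs found only under the M-G1 heading gave 5 higher and 20 lower of 43 in glucose limitation, where 11.3% of all ORFs were higher and 12.9% lower. Those found only under the G2-M heading gave 14 higher and 3 lower of 36 in histidine limitation, where 18.1% were higher and 17.3% lower.

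On the first array after the onset of stress, 0.23 to 0.33 h into the course, members tended to be lower than at steady state. Over the 7 courses of DTT, heat shock, NaCl and H2O2, 20 members (9.132%) were lower, against 8.37% of all ORFs, and 1 (0.457%) was higher, against 6.47% of all ORFs. The share of members that passed downward was thus near that of all ORFs, and the share that passed upward was below it. The median over members was between -0.32 and -0.02 in the 7 courses, while the median of all ORFs lay between -0.01 and 0.01. At an unadjusted p under 0.05, 58 members were lower and 4 higher, against 17.1% and 16.3% of all ORFs. For 17 of the 21 members called, every one of the 7 courses lay on the same side of 0. The test itself favours members with little spread between these courses, so such agreement is partly built in. Its share over all ORFs called was not counted. Without the glucose-limited heat shock course, or without any of the 3 histidine-limited courses in turn, no ORF of the 6132 passed. In these 4 fits 42 to 48 members were lower and 2 to 4 higher at an unadjusted p under 0.05, and the lowest adjusted p of a member was between 0.0609 and 0.0747. Of all 6132 ORFs, 1590 to 1720 passed that unadjusted limit in either direction in the same fits, so the member counts are not particular to the members.

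**Figure D3:**
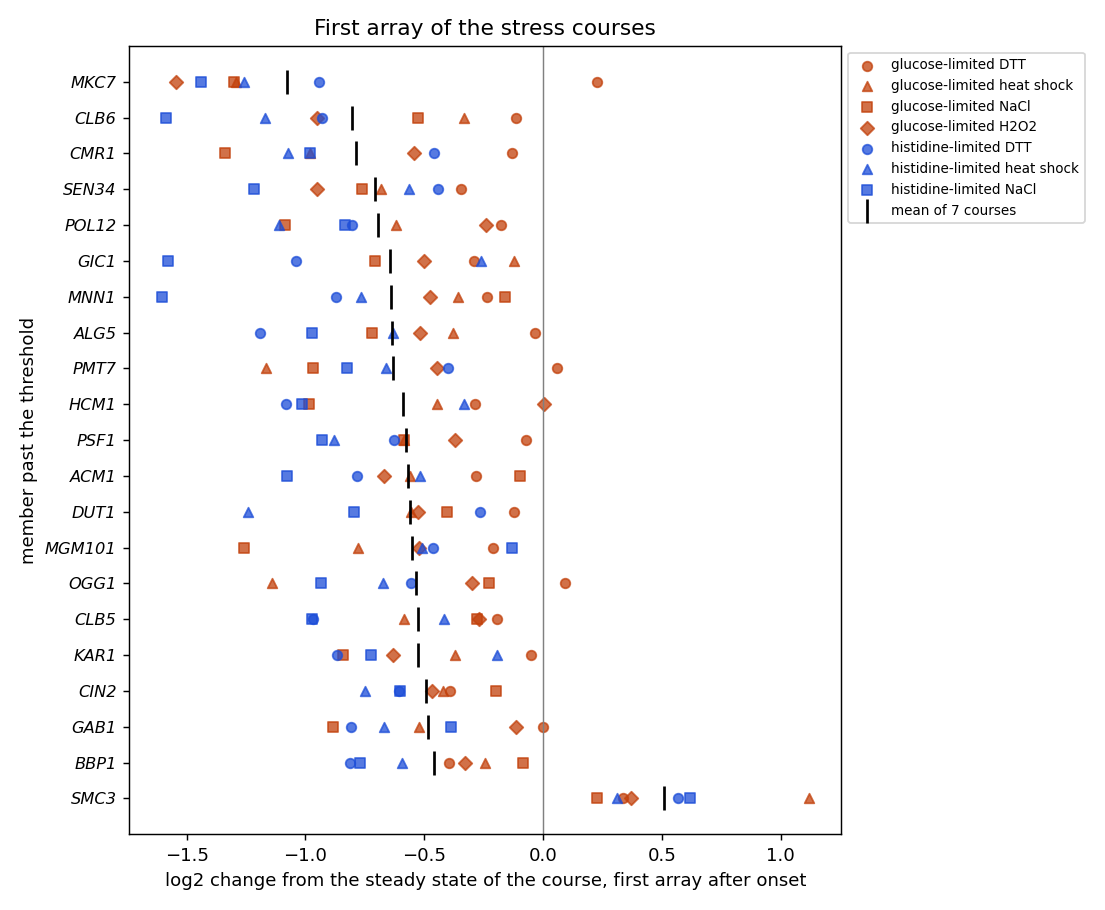
Each row is 1 of the 21 members that passed the limma threshold of 0.05 after adjustment, with the log2 change from steady state on the first array after onset on the horizontal axis. Symbols are the 7 courses (orange glucose-limited, blue histidine-limited) and the black bar is their mean. The points of *CLB6* and *POL12* lie left of 0 in all 7 courses, *MKC7* has 1 point right of 0, and *SMC3* is the row to the right.

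Of the 8 regulators 3 were lower and 5 did not pass. *CLB6*, which with *CLB5* starts DNA replication, had -0.12, -0.33, -0.53 and -0.95 in the glucose-limited DTT, heat shock, NaCl and H2O2 courses and -0.93, -1.17 and -1.59 in the histidine-limited DTT, heat shock and NaCl courses (mean -0.80, SE 0.18, adjusted p = 0.0244). *CLB5* ran from -0.97 to -0.19 with a middle value of -0.42 (mean -0.53, adjusted p = 0.0318). *HCM1*, the forkhead factor of S-phase genes, ran from -1.08 to 0.01 with a middle value of -0.45 (mean -0.59, adjusted p = 0.0369). The 5 other regulators did not pass, with means of -0.35 for *NDD1*, -0.30 for *STB1*, -0.26 for *CLB3*, -0.16 for *SWI4* and 0.32 for *PLM2* (adjusted p 0.087 to 0.438).

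The role groups gave small counts, of which 3 of 27 replication genes and 3 of 32 spindle genes were near the 8.37% of all ORFs called lower. The replication genes were *POL12* (from -1.11 to -0.18, middle value -0.80, mean -0.69), *PSF1*, a subunit of the GINS complex (mean -0.58), and *DUT1*, the dUTPase (mean -0.56). *OGG1*, which removes oxidised guanine, was the one repair gene that passed (mean -0.53, adjusted p = 0.0485). Of the 32 spindle genes 3 were lower, namely *KAR1*, of the half-bridge of the spindle pole (-0.53), *CIN2*, of tubulin folding (-0.49), and *BBP1*, a spindle pole component (-0.46). *GIC1* was the one budding gene (-0.64), and *MNN1* (-0.64), *ALG5* (-0.63) and *GAB1*, a subunit of the GPI transamidase (-0.48), the wall and glycosylation genes. The largest mean fall was that of *MKC7*, with a lowest value of -1.55, a middle value of -1.29 and a highest of 0.23 (mean -1.08, SE 0.20, adjusted p = 0.0235), where the glucose-limited DTT course alone was above 0. *SMC3* was the only member called higher, with 0.23 as the lowest, 0.37 as the middle and 1.12 as the highest value (mean 0.51, adjusted p = 0.0313). Its cohesin partners *SMC1* (-0.22) and *IRR1* (-0.01) did not pass, and neither did the replication factor A genes (*RFA1* 0.02, *RFA2* 0.01, *RFA3* -0.22) or the septin genes *CDC3* (-0.09) and *CDC11* (-0.17).

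Some other G1 genes were lower on the same arrays, where 8.37% of all ORFs were called lower and 6.47% higher. Of the 60 G1 ORFs shared with another module 25 were lower and 0 higher, with a median of -0.57. Of the 35 pathway genes 8 were lower and 0 higher. They were the repressor genes *YHP1* (-1.48), *NRM1* (-1.33) and *YOX1* (-0.89), the replication clamp gene *POL30* (-1.22), the cohesin gene *MCD1* (-0.89), the flap nuclease gene *RAD27* (-0.83), *RNR1* (-0.73) and *CLN1* (-0.70). *CLN2* (0.01) and *CLN3* (0.08) did not pass. Of the ORFs found only under the M-G1 or only under the G2-M heading, 7 of 43 and 7 of 36 were lower and 0 were higher. The shares of all ORFs to set beside them are the same 8.37% and 6.47%.

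Later in the stress courses no member passed, and neither did any other ORF (0% of 6132). From 1 to 4 h the median over members was -0.07, and 8 were higher and 19 lower at an unadjusted p under 0.05 (limma), against 7.49% and 5.98% of all ORFs. From 5 to 10 h it was -0.04, with 12 higher and 21 lower, against 8.25% and 7.88% of all ORFs. With the ratio over batch in place of the change from steady state, 25 members (11.4%) passed from 5 to 10 h, 12 higher and 13 lower, against 12.9% of all ORFs. In both heat shock courses the window from 5 to 10 h follows the return to 30 °C. The first arrays of the same stress in glucose-limited and in histidine-limited cells were compared for DTT, heat shock and NaCl, and no member passed, and neither did any other ORF. At an unadjusted p under 0.05, limma gave 4 members higher and 3 lower in glucose limitation, against 3.16% and 5.41% of all ORFs. The median difference over members was 0.11. The comparison rests on 3 stresses, and the dose of NaCl and the temperature of the heat shock differed between the limitations. On data simulated for this design it called 0% of true log2 changes of 0.5, 2% of 1 and 62% of 2. That no ORF passed therefore does not show that the limitations were alike.

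The single courses, with 1 array per time and no test, showed how the median over the members moved. A median near 0 does not mean that each member was back at its steady state. The largest shift of the whole module was on the 0.23 h array of histidine-limited NaCl, with a median of -0.32, 1 member up by 1 or more and 14 down by 1 or more (9.2% of all ORFs up and 9.23% down). By 1.82 h the median was 0.01. In glucose-limited NaCl at 0.25 h the median was -0.18, with 9 up and 20 down (10.1% of all ORFs up and 13.6% down), and by 1.75 h it was -0.01. At 5.08 h of that course the median was -0.02, with 3 up and 13 down (2.02% of all ORFs up and 4.31% down). In H2O2 the low point came at 1.2 h, with a median of -0.24, 7 up and 22 down (9.57% up and 9.43% down of all ORFs). In clotrimazole the median was lowest at 26.45 h, at -0.25, a later time than in any of the stress courses. After glucose addition the median was 0.15 at 0.25 h, with 11 up and 4 down (8.74% up and 9.85% down of all ORFs), and 0.26 at 9.8 h, with 16 up and 1 down (3.88% up and 3.49% down). After histidine addition it stayed between -0.08 and 0.01.

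**Figure D4:**
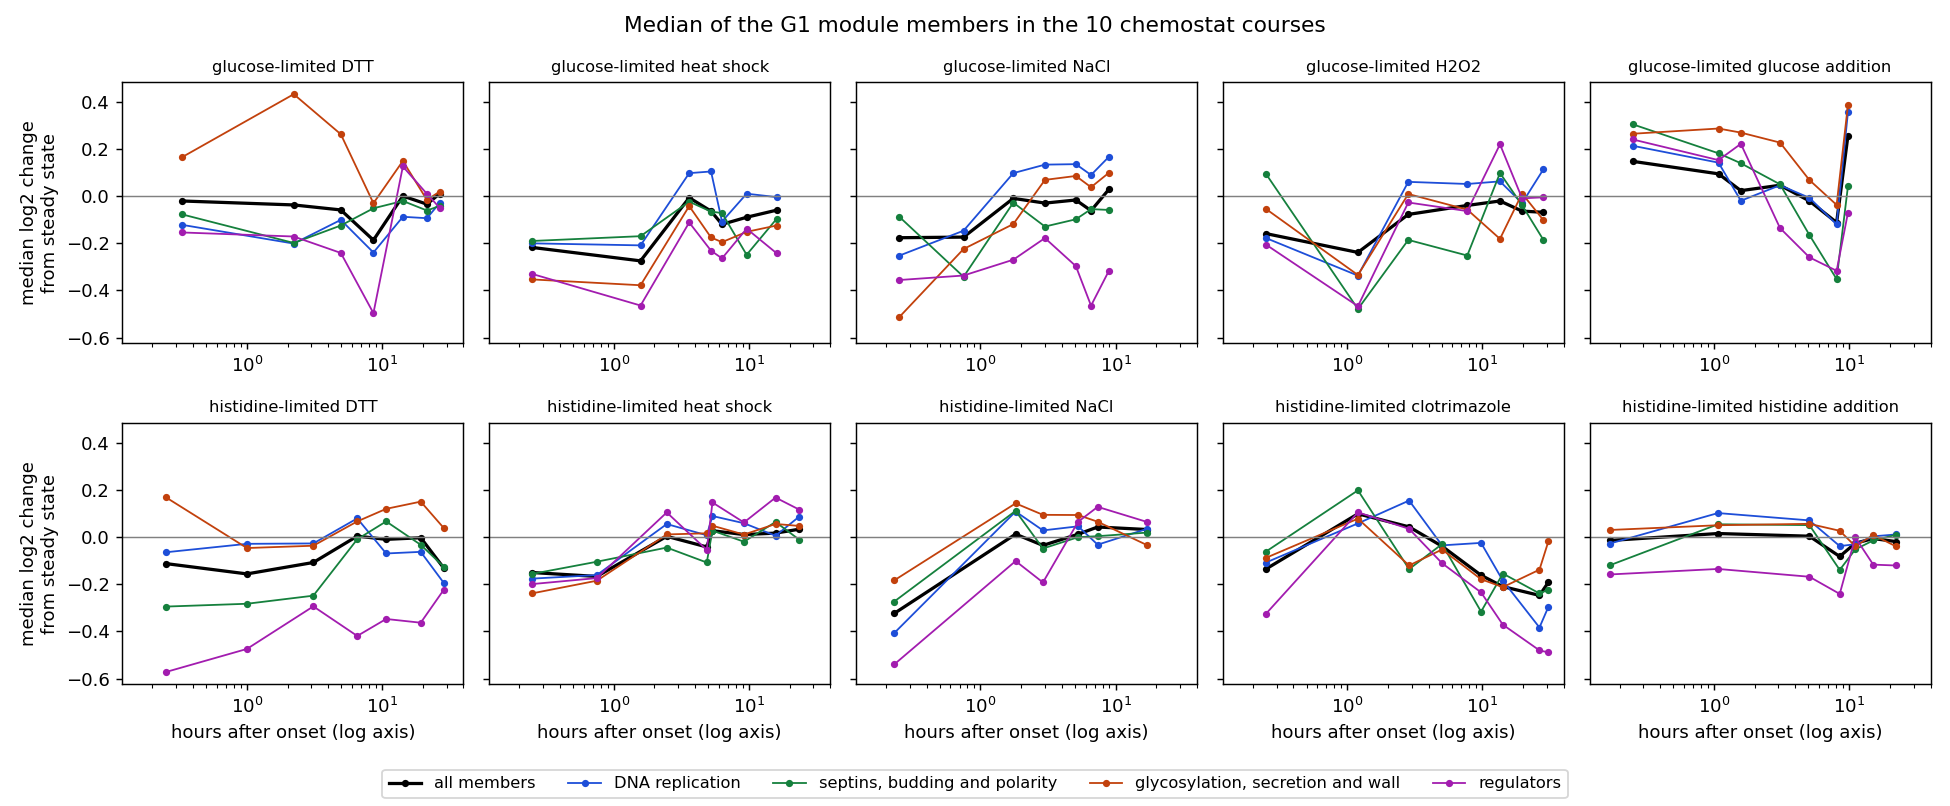
Each panel is 1 of the 10 chemostat courses, with hours after onset on a log axis and the median log2 change from the steady state of the course on the vertical axis, for all 219 members (black) and 4 role groups. The median of all members is below 0 on the first array of every stress course and close to 0 from 1.75 h on in both NaCl courses. The glycosylation, secretion and wall group runs above 0 in glucose-limited DTT, up to 0.43 at 2.22 h.

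Of the 219 members, 142 (64.84%) were at 1 or more from the steady state on at least 1 of the 71 arrays, against 72.9% of all ORFs. Upward there were 81 members (36.99%, against 52.87% of all ORFs), and downward 104 (47.49%, against 51.08%). On the repeat steady-state arrays of 3 histidine-limited courses the largest difference of any member was 0.76 and no member differed by 1. The 15 members that reached 2 did so in particular courses. *ALG7*, which makes the first step of the N-glycan precursor, had 4.19 and 3.79 at 0.25 and 1.2 h of H2O2 and -0.01 at 2.83 h. The genes beside it read 4.84 (*GPX2*, a glutathione peroxidase) and 1.51 (*YBR242W*) on the same 0.25 h array. In DTT *ALG7* had 1.07, 1.26 and 0.94 on the first 3 glucose-limited arrays.

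Several members far from steady state in DTT belong to glycosylation and GPI anchoring. *MCD4*, which acts in the synthesis of GPI anchors, had 2.33, 3.15, 2.90 and 0.81 at 0.33, 2.22, 4.95 and 8.63 h of glucose-limited DTT, and 1.54, 1.70 and 1.65 on the first 3 histidine-limited DTT arrays. *KTR1*, a mannosyltransferase, had 0.94, 2.14 and 1.64 on the first 3 glucose-limited arrays. *URH1*, of no role group, had 1.02, 2.01 and 1.44. The median of the glycosylation, secretion and wall group was 0.43 at 2.22 h, against -0.04 for all members, but -0.03 at 8.63 h, and 0.17, -0.05 and -0.04 on the first 3 arrays of histidine-limited DTT. At 2.22 h 6% of all ORFs were up and 4.81% down by 1 or more. Replication genes split in histidine-limited DTT: *RFA2* had 1.03, 1.94, 2.04 and 1.20 on the first 4 arrays, *RFA1* had 0.76, 1.71, 1.89 and 1.22, and *POL12* had -0.80, -2.31 and -0.87 on the first 3.

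**Figure D5:**
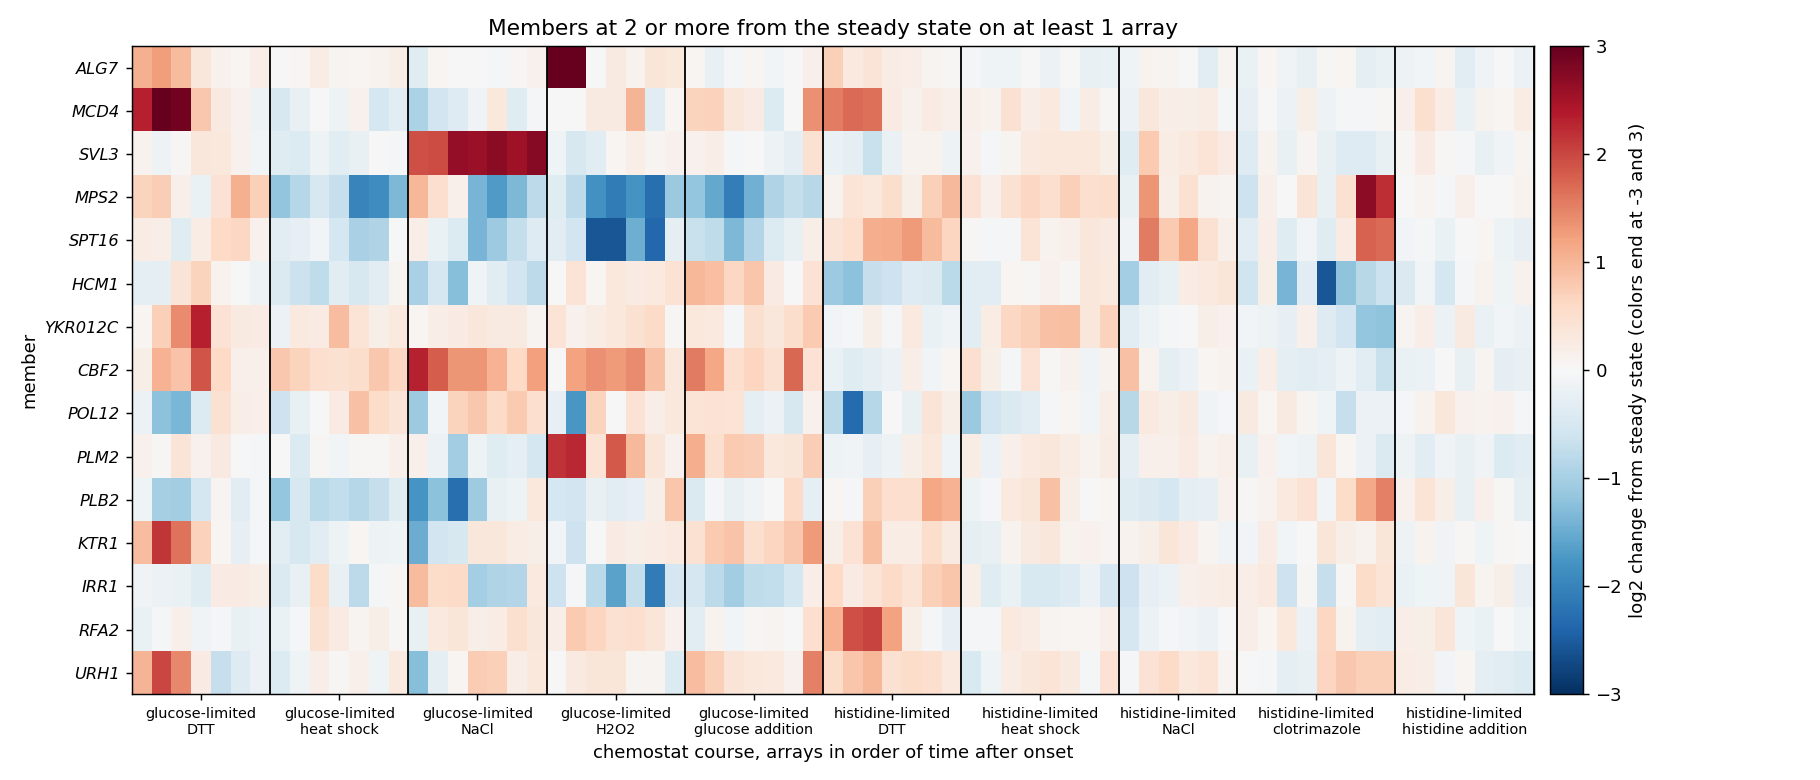
Rows are the 15 members at 2 or more from the steady state on at least 1 array, and columns are the 71 chemostat arrays, by course and in order of time after onset. Color is the log2 change from steady state, and its scale ends at -3 and 3. *ALG7* is dark on the first 2 arrays of H2O2, *SVL3* on all 7 arrays of glucose-limited NaCl, and *MPS2* and *SPT16* are low from 2.83 h of H2O2 on and high late in clotrimazole.

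Salt and peroxide marked other members. *SVL3*, a protein of unknown function at the bud, had 1.93, 1.97, 2.64, 2.60, 2.71, 2.55 and 2.72 on the 7 glucose-limited NaCl arrays and did not come back within 8.93 h. *CBF2*, a subunit of the CBF3 complex of the kinetochore, had 2.31 at 0.25 h and 1.82 at 0.75 h of the same course. *PLM2*, a forkhead-associated factor induced by DNA damage, had 2.16, 2.27, 0.42 and 1.84 on the first 4 arrays of H2O2, against values between -0.30 and 0.23 on the first arrays of the other 6 stress courses. *HCM1* was lowest at 9.78 h of clotrimazole, at -2.56. The spindle pole gene *MPS2* was 2.69 at 26.45 h of clotrimazole and -2.26 at 19.67 h of H2O2, and *SPT16* was -2.58 at 7.73 h of H2O2, while both were above 1 on the last 2 arrays of clotrimazole.

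The highest correlations over the 71 arrays were picked from 23871 pairs of members, and the highest of all ORF pairs were not taken. The 95th percentile was 0.46 for pairs of members and 0.45 for all ORF pairs. The highest correlation among the pairs of members was that of *MPS2* and *SPT16* (r = 0.85), followed by *MSB2* and *SMC6* (0.85) and *IRR1* and *SMC6* (0.83). *URH1* and *KTR1* had r = 0.80, *MCD4* and *KTR1* 0.76, *PMT7* and *OST1* 0.76, and *EMP24* and *ERV25*, both p24 proteins of vesicle transport, 0.75. The 8 regulators had a median pairwise correlation of 0.21 and the glycosylation, secretion and wall genes 0.12, against 0.58 among the S-phase targets outside the members. These correlations are over arrays that share courses, steady states and references, and no test was made. The arrays carried PCR products of ORFs, so transcripts of overlapping genes cannot be told apart. Of the 3 unnamed ORFs that overlap a named member, *YDL163W* and *CDC9*, the DNA ligase gene, had r = 0.31, *YCL022C* and *KCC4* 0.08, and *YDL094C* and *PMT5* -0.36.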

How the data were processed

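RNA was compared on 2-color arrays of PCR products of yeast ORFs, with labelling by an indirect amino-allyl method. The deposited log2 ratios had been corrected for technical biases and normalized by the authors, and the correction itself was not given in the sources used here. The tested sample was in Cy5 and there were no dye swaps. Each experiment used 1 of 2 scanners. Scanner intensities were not analysed, so precision is limited by the number of arrays. From 460 to 1061 values were missing on a log-phase array and 0 on a chemostat array, and up to 264 values of a chemostat array were exactly 0.

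Groups came from the sample labels. Some labels of the heat shock courses conflict (a repeated set of times, and a glucose-limited source for a histidine-limited steady state), and the titles were used. ORFs were named through RefSeq (210 of the 219 members matched). The members, role groups, lists and tests were chosen with earlier results of these data known.

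Tests used limma 3.58.1 (lmFit and eBayes) in R 4.3.3 on all ORFs, with Benjamini-Hochberg adjustment over all ORFs tested and a threshold of 0.05. Log-phase arrays of both strains were fitted together, on ORFs with a value on all 5. Chemostat comparisons took 1 value per course, the mean of its arrays in a window (first array, 1 to 4 h or 5 to 10 h). The code was tested on simulated data. Named were the 8 regulators, in each comparison the 5 largest called increases and the 5 largest called decreases with 1 sign on every array or course, the highest and lowest of each role group in log phase and on the first stress array, the subunits of 5 complexes and the genes of the pathway list. Genes of single courses, of the transfer and of the correlations were chosen after their values were seen. Alternatives were centring, robust eBayes, exact zeros as missing, 4 of 5 values, the replicate number as a block, each strain alone, all ORFs of the G1 heading, the ratio over batch, the mean steady state of the limitation, and each array or course left out. Promoter and protein sequences were not analysed here. Some members are not reported here.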

Additional observations from a re-analysis of the deposited data

Results flagged for a closer look

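Of 121 sets of 4 to 7 course values examined, 13 held a course far from the others by Dixon's criterion, which chance alone meets in about 1 in 20 sets. *PLM2* in H2O2 stood apart in all 3 windows, with 2.16 on the first array (other courses -0.295 to 0.231), 1.34 from 1 to 4 h (-0.6 to 0.158) and 1.84 from 5 to 10 h (-0.386 to 0.285). *ALG7* in H2O2 read 4.19 on the first array, against -0.375 to 1.07 elsewhere. From 1 to 4 h the median of the regulators was 0.104 in histidine-limited heat shock and -0.376 to -0.172 in the other courses. From 5 to 10 h glucose-limited DTT was low in the median of the DNA replication genes (-0.239, others 0.008 to 0.133) and in *CLB3* (-0.69, others -0.245 to -0.022).

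Among the histidine-limited steady states, that of the heat shock course was the lowest in 4 measures, namely the median of the members (-0.133, others -0.0369 to -0.0229), *TOS2* (0.71, others 1.34 to 1.47), *GIC1* (0.299, others 0.832 to 0.918) and *SWI4* (-0.338, others -0.0795 to -0.067). *STB1* was 0.115 in the clotrimazole course (others -0.196 to -0.161), and *NDD1* was -0.782 in the NaCl course (others 0.105 to 0.13).

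By the limma test of the difference between the strains 23.8% of the 172 tested members passed, against 25.6% of all ORFs. The 11 members given here include *NDD1*, named as a regulator. The others were named as the largest called differences of this same test, so their number is set by that choice. The signed log2 ratio of glycerol over glucose was higher in cells labelled *adh1* than in WT cells for *MNN2* (1.46), *ALE1* (1.4), *HTZ1* (1.3), *JEM1* (1.24), *SMF2* (1.2) and *NDD1* (0.47). It was lower for *PMT7* (-0.819), *RTT107* (-0.752), *RAD53* (-0.731), *SKG6* (-0.694) and *URH1* (-0.642). The calls of *RAD53*, *SKG6*, *URH1* and *NDD1* were each lost without at least 1 of the arrays.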

How the results depend on the processing

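None of the named values changed sign while called. Of 88 called values of named genes, all 88 passed with centring, with robust eBayes and with exact zeros as missing. Replicate numbers did not pair the log-phase arrays (correlations of the deviations 0.054 and -0.0018). With the number as a block, 15 members were higher and 4 lower in *adh1* minus WT, and *SKG6* (adjusted p = 0.0756) and *NDD1* (0.134) lost their calls there. In that fit 11% of the members and 16.5% of all ORFs passed. With all ORFs of the G1 heading the WT median was -0.348, 66 ORFs were higher in *adh1* minus WT, and 45 were lower on the first stress array. With the ratio over batch, 0 members were higher and 0 lower on the first stress array (5 and 32 at an unadjusted p under 0.05, limma, and 135 ORFs passed), the median from 1 to 4 h was -0.006, from 5 to 10 h 12 were higher and 13 lower (12.9% of all ORFs passed) with a median of 0.0361, and between limitations 1 was higher (1.58% of all ORFs passed) with a median of 0.325. The cause was not tested. Leaving out 1 array gave 30 to 48 members higher and 40 to 61 lower in *adh1*, 19 to 31 higher and 62 to 79 lower in WT, and 13 to 35 higher and 2 to 6 lower in the difference. Without 1 of the 3 arrays labelled *adh1*, 45.6% to 53.9% of all ORFs passed in *adh1*, 55.6% to 57.9% in WT and 12.9% to 16.8% in the difference. With all arrays the shares were 63.1%, 60.7% and 25.6%. Leaving out 1 course gave 0 to 2 higher and 0 to 26 lower on the first stress array, 29 to 46 higher and 2 to 5 lower in the glucose-limited steady state, and 11 to 28 higher and 26 to 37 lower in the histidine-limited one. Of all ORFs 0% to 20%, 13% to 20.4% and 19% to 34.1% passed there, against 14.8%, 24.2% and 35.5% with all courses.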
